A study of Mus musculus with 2 samples.

Results

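Cadherins and protocadherins are calcium-dependent membrane proteins that hold neighbouring cells together. The transcripts of 8 of them were followed in single cells of mouse interlimb somites: the type I classical cadherins Cdh1 (E-cadherin), Cdh2 (N-cadherin), Cdh3 (P-cadherin) and Cdh4 (R-cadherin), the type II classical cadherins Cdh6 (K-cadherin) and Cdh11 (OB-cadherin), and the delta2 protocadherins Pcdh18 and Pcdh19. These 8 were taken by gene symbol from the 27998 genes counted, and all 8 were found in both libraries. Somites between the fore and hind limb buds were taken from wild type C57BL/6 embryos at embryonic day 9.5 (E9.5) and 11.5 (E11.5), and at each stage the somites of 3 embryos were pooled, dissociated with trypsin and captured in droplets as 1 library. No embryo was treated, and stage is the only factor of the design.

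Classical cadherins bind mainly the same cadherin on the adjoining cell, and their tails bind beta-catenin and p120-catenin, through which alpha-catenin ties the junction to actin. Delta2 protocadherins lack the catenin site, and their tails recruit the WAVE complex, a regulator of actin branching. Cells that leave an epithelium typically exchange E-cadherin for other cadherins, N-cadherin is the cadherin of epithelial somites and neural tube, and cadherin-11 is known from mesenchyme and bone-forming cells.

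Pcdh18 and Pcdh19 belong to the same subfamily but were highest in different somite classes, sclerotome and new somite, so the 250 bases before their starts are shown side by side, as RefSeq gives them on GRCm38.p6. The table of promoters held 3 of the 8 members, Cdh6, Pcdh18 and Pcdh19. Both sequences are on the minus strand and written 5′ to 3′, Pcdh18 at chr3:49757317-49757566 and Pcdh19 at chrX:133688994-133689243. Capitals mark the longest run of bases that they share on the strand shown.
Pcdh18: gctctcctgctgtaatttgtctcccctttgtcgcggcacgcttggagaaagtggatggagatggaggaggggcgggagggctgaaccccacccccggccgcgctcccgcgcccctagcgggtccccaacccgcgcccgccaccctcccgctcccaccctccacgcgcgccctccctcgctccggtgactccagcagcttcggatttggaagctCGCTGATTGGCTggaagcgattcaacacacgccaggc
Pcdh19: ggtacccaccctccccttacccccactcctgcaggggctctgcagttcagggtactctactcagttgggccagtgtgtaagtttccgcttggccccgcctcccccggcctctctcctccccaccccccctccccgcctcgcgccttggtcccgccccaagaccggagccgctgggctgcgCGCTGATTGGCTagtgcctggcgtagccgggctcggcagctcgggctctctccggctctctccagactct
The shared run CGCTGATTGGCT is 12 bases long and lies at bases -37 to -26 before the start of Pcdh18 and -70 to -59 before that of Pcdh19. On either strand it was found in 56 of the 32851 RefSeq windows of the same length (0.170%). It contains ATTGG, the core of a CCAAT box on the other strand, which is found on either strand in 33.8% of those windows. CACCTG, the E-box bound by the Snail and Zeb repressors, was in neither sequence on either strand and in 17.2% of all windows. The G and C content was 68.0% before Pcdh18 and 69.2% before Pcdh19. These matches describe letters only.

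Cells with at least 200 and fewer than 6500 genes and below 15% mitochondrial UMIs were kept, 9851 of E9.5 and 9595 of E11.5, with medians of 12462 and 12479 UMIs. A UMI is a molecular tag that counts 1 captured transcript. Cells were put in classes by marker genes, none of them a cadherin, protocadherin or catenin, and a class is called gated because its markers were chosen and are no finding. Of the cells kept, 4692 at E9.5 and 2664 at E11.5 fell in the 6 classes compared here, with 112 and 4 new somite cells, 949 and 245 dermomyotome cells, 15 and 487 myocytes, 1325 and 1248 sclerotome cells, 2188 and 563 neural cells (progenitors, neurons and cells passing both of their gates), and 103 and 117 ectoderm cells. Other cells that passed more than 1 gate were set aside (772 and 197). The marker list of a class was highest in that class for all lists except those of dermomyotome at E9.5, which was higher in new somite cells (1691 UMIs per 1000000 UMIs against 1324), and of myoblasts at E11.5, which was higher in myocytes. These lists are the genes of the gates themselves, so their order does not test the names of the classes. Levels are UMIs of a gene per 1000000 UMIs of the class (UPM), not divided by transcript length, so that an order of genes is an order of captured molecules. Ranges in brackets are exact 95% intervals, Poisson for levels and Clopper-Pearson for shares, and cover counting error only. With 1 library at each stage no difference could be tested across replicates. A class was given a level from 20 cells on, so that new somite cells had levels only at E9.5 and myocytes only at E11.5. The libraries shared 30 barcodes.

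Each class had its own mixture of the 8 transcripts. Pcdh19 gave 53.1% (49.1% to 57.2%) of their 608 UMIs in new somite cells, where Cdh2 gave 33.2% (29.5% to 37.1%). Cdh2 led in E9.5 dermomyotome with 55.1% (53.3% to 57.0%) and in neural cells with 81.3% (80.2% to 82.3%) at E9.5 against 71.4% (69.3% to 73.4%) at E11.5. Sclerotome was led by Cdh11, the mesenchymal cadherin, with 55.1% (53.7% to 56.5%) and 51.8% (50.6% to 53.0%) at the stages in turn. In ectoderm, Cdh3 gave 35.7% (29.8% to 42.0%) and 44.5% (39.9% to 49.2%) and Cdh1 gave 31.7% (26.0% to 37.9%) and 26.0% (22.0% to 30.3%). Dermomyotome of E11.5 was not led by Cdh2, with Cdh11 at 29.8% (27.4% to 32.3%), Cdh2 at 24.8% (22.5% to 27.1%), Pcdh18 at 18.7% (16.7% to 20.8%) and Pcdh19 at 13.7% (11.9% to 15.6%). Of its cells, 138 of 245 had a UMI of En1, a marker of the central dermomyotome, against 4 of 949 at E9.5. In the E11.5 dermomyotome cells without En1, Cdh11 gave 34.2% (30.1% to 38.4%) and Cdh2 29.3% (25.5% to 33.5%), intervals that overlapped. Myocytes of E11.5 were led by Cdh11 with 37.6% (34.7% to 40.5%), followed by Cdh2 with 23.2% (20.7% to 25.8%) and Cdh4 with 17.7% (15.5% to 20.1%). The 8 genes together amounted to 326 UPM in new somite cells, 186 and 372 in dermomyotome, 123 in E11.5 myocytes, 278 and 388 in sclerotome, 195 and 309 in neural cells, and 155 and 274 in ectoderm. In the 4 of these 6 classes with levels at both stages the sum was higher at E11.5.

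**Figure D1:**
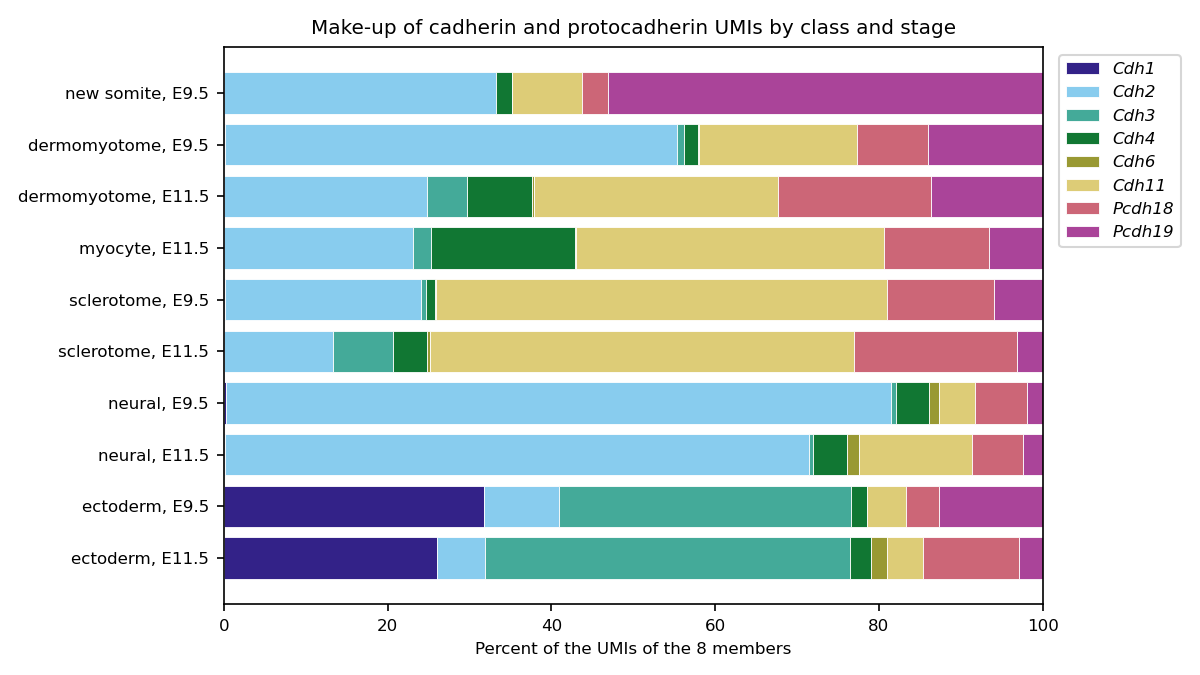
Percent of the UMIs of the 8 members that each member gave (horizontal axis) in the gated classes and stages with 20 or more cells (rows). Pcdh19 fills 53.1% of the new somite bar, Cdh2 81.3% of the E9.5 neural bar and Cdh11 55.1% of the E9.5 sclerotome bar, while Cdh1 and Cdh3 fill most of both ectoderm bars.

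Cdh1, which encodes the main cadherin of epithelia, was highest in ectoderm (GRCm38, chr8:106603351-106670246). Of its 190 UMIs over all cells kept at E9.5, 80 lay in ectoderm-gated cells, 46 in cells set aside and 39 in cells that passed no gate, and of 132 at E11.5, 119 lay in ectoderm. Its level was 49.2 (39.0 to 61.2) UPM in ectoderm at E9.5 against 71.2 (59.0 to 85.2) at E11.5, a log2 ratio of 0.53 (0.11 to 0.96). In the other gated classes it was at 1.68 UPM or less, and after ectoderm each class had an interval that overlapped the next. No UMI of Cdh1 was found in new somite cells, which allows a level of up to 1.61 UPM, nor in the dermomyotome of E11.5, which allows up to 0.794. A UMI of Cdh1 was found in 44.7% (34.9% to 54.8%) of E9.5 ectoderm cells and 48.7% (39.4% to 58.1%) of those of E11.5. After thinning each cell to 5000 UMIs the shares were 19.8% and 29.7%. In red blood cells, which should lack all 8 genes and whose median depth was 14734 and 17167 UMIs against 14657 and 12274 in ectoderm, no cell had a Cdh1 UMI, which allows 2.73% and 2.27%.

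Cdh3 lies 46053 bases before Cdh1 on the same strand (GRCm38, chr8:106510891-106557297) and encodes a cadherin of surface epithelia. It was highest in ectoderm too, with 55.3 (44.5 to 68.0) UPM at E9.5 against 122 (106 to 140.0) at E11.5. At E9.5 the next class, neurons, had 6.71 UPM from 4 UMIs, and dermomyotome and sclerotome had 1.72 (1.12 to 2.52) and 1.77 (1.21 to 2.5). At E11.5 these mesodermal classes stood at 18.5 (14.4 to 23.4) and 28.1 (25.6 to 30.8), above the other classes except ectoderm, a spread that Cdh1 did not show. Myoblasts and myocytes of E11.5 had 2.04 (1.12 to 3.43) and 2.57 (1.63 to 3.86). Of the 70 Cdh3 UMIs of E11.5 dermomyotome, 62 lay in cells with a UMI of En1. The dermomyotome cells without En1 held 8, and their interval overlapped those of myoblasts and myocytes. Across the 20 profiles of class and stage Cdh1 and Cdh3 had a Pearson r of 0.77 on the log2 scale, the second highest of the 28 pairs of members, a description over profiles that share libraries. As Cdh1 was at 1.68 UPM or less outside ectoderm, this r rests mostly on the ectoderm profiles. In ectoderm cells thinned to 5000 UMIs, 8.11% (3.77% to 14.8%) had both transcripts at E11.5, 21.6% (14.4% to 30.4%) had Cdh1 alone and 33.3% (24.7% to 42.9%) had Cdh3 alone.

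Cdh2, on chromosome 18, encodes the cadherin of neural tube and somite epithelium and was the most abundant member over the cells kept at E9.5 (100.2 UPM) and the second at E11.5 (88.2), behind Cdh11. Neural progenitors were highest, with 159.6 (155 to 165) UPM at E9.5 against 243 (219 to 268) at E11.5, and neurons followed with 131 (103 to 163) and 210.0 (196 to 225), intervals that overlapped those of progenitors. Among somite classes of E9.5, new somite cells (108, 93.8 to 124), dermomyotome (103, 97.5 to 108) and myoblasts (117, 103 to 131) had overlapping intervals, and sclerotome (66.5, 62.8 to 70.4) lay below them. At E11.5 dermomyotome had 92.2 (82.7 to 102), myoblasts 61.9 (56.2 to 68.1), sclerotome 51.7 (48.4 to 55.3) and myocytes 28.4 (25.0 to 32.2). Ectoderm had 14.1 (8.96 to 21.2) and 16.2 (10.6 to 23.5), and red blood cells 3.54 (1.3 to 7.69) and 8.55 (5.3 to 13.1), so that at E11.5 the ectoderm interval overlapped that of red blood cells. Neural crest stood at 69.4 (63.1 to 76.2) at E9.5, overlapping sclerotome, and at 187 (175 to 201) at E11.5, where its interval overlapped that of neurons.

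Cdh4, which encodes a cadherin close to N-cadherin in sequence (GRCm38, chr2:179442431-179899373), was low at E9.5. Its highest levels there were 8.39 (2.72 to 19.6) UPM in neurons, 8.05 (7.0 to 9.2) in neural progenitors and 6.43 (3.32 to 11.2) in new somite cells, all with overlapping intervals. At E11.5 other classes led, with 29.4 (24.2 to 35.4) in dermomyotome, 24.7 (21.1 to 28.7) in myoblasts and 21.7 (18.8 to 25.0) in myocytes. These 3 classes had overlapping intervals and lay above sclerotome (16.1, 14.2 to 18.1), neural progenitors (14.3, 8.94 to 21.6) and neurons (11.4, 8.37 to 15.1) in level. The interval of neural progenitors still reached those of myoblasts and myocytes. Of the 111 Cdh4 UMIs of E11.5 dermomyotome, 80 lay in cells with a UMI of En1 (37.2, 29.5 to 46.3, UPM). The dermomyotome cells without En1 had 19.1 (13.0 to 27.1), an interval that overlapped those of myoblasts, myocytes and sclerotome. Red blood cells had no Cdh4 UMI at E9.5, which allows up to 1.77 UPM, and 0.407 at E11.5.

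**Figure D2:**
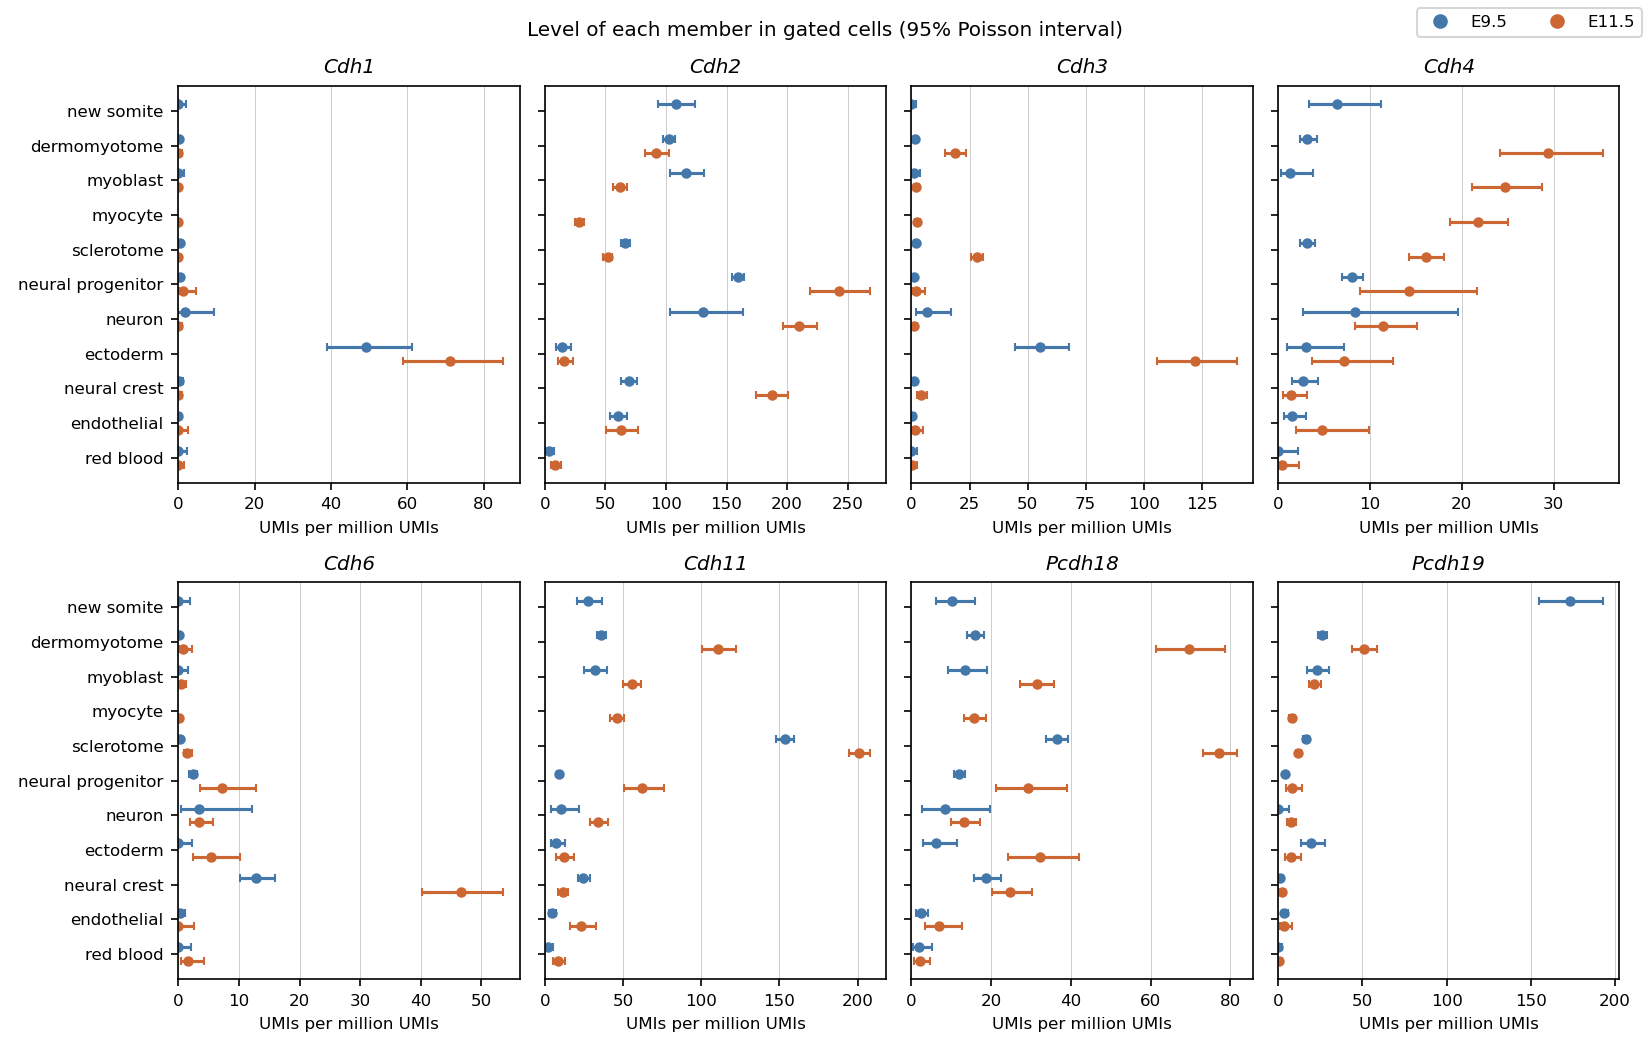
Level of each member in UMIs per 1000000 UMIs (horizontal axes, linear and of different range) in 11 gated classes (rows) at E9.5 (blue) and E11.5 (orange), with exact 95% Poisson intervals as bars. Cdh1 stands away from 0 in ectoderm alone, Cdh11 is highest in sclerotome at both stages, and Pcdh19 is at 173 in new somite cells and at 26.1 or less in every other class of E9.5.

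Cdh11, a cadherin of mesenchyme (GRCm38, chr8:102632095-102785642), was higher in sclerotome than in any other class at both stages. Sclerotome had 153 (148 to 159) UPM at E9.5 against 201 (194 to 208) at E11.5. Dermomyotome had 36.0 (33.0 to 39.1) and 111 (101 to 122), new somite cells had 27.8 (20.8 to 36.5), and the myocytes of E11.5 had 46.1 (41.8 to 50.8). A Cdh11 UMI was found in 78.2% (75.9% to 80.4%) of E9.5 sclerotome cells and 39.1% (36.0% to 42.3%) of dermomyotome cells, or 51.2% and 14.6% after thinning. The median depths of these cells were 12443 and 14064 UMIs, against 14734 in red blood cells, of which 2.73% (0.566% to 7.76%) had a Cdh11 UMI. In neural crest the E11.5 level of Cdh11 was lower, 11.3 (8.33 to 15.1) against 24.7 (20.9 to 28.9).

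Cdh6, a type II cadherin known from neural crest and kidney (GRCm38, chr15:13028701-13173675), was rare in somite classes and highest in neural crest. Its level there was 12.8 (10.2 to 15.9) UPM at E9.5 against 46.6 (40.2 to 53.6) at E11.5. Neural progenitors had 2.38 (1.83 to 3.04) and 7.14 (3.56 to 12.8). Dermomyotome held 2 and 3 UMIs at the stages in turn, new somite cells none, and sclerotome 4 and 25. The E11.5 sclerotome level of 1.49 (0.963 to 2.2) had an interval that overlapped that of red blood cells (1.63, 0.444 to 4.17).

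Pcdh18 (GRCm38, chr3:49743296-49757325) followed Cdh11 more closely than any other pair of members followed each other, with a Pearson r of 0.83 across the 20 profiles. It was highest in sclerotome, with 36.4 (33.7 to 39.3) UPM at E9.5 against 77.3 (73.1 to 81.6) at E11.5. Dermomyotome had 16.0 (14.0 to 18.1) at E9.5, less than in sclerotome, and 69.6 (61.5 to 78.6) at E11.5, where the intervals of the classes overlapped. New somite cells had 10.2 (6.12 to 15.9), E11.5 myocytes 15.8 (13.3 to 18.6), and neural cells 12.2 and 19.5. Ectoderm had 6.15 (2.95 to 11.3) and 32.3 (24.3 to 42.1).

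Pcdh19, an X-linked gene (GRCm38, chrX:133582860-133688987), was highest in new somite cells at E9.5. Its level in new somite cells was 173 (155 to 193) UPM, against 23.2 (17.4 to 30.3) in myoblasts, 26.1 (23.6 to 28.9) in dermomyotome and 16.5 (14.7 to 18.5) in sclerotome of the same library. A Pcdh19 UMI was found in 69.6% (60.2% to 78.0%) of new somite cells and 26.1% (23.4% to 29.1%) of dermomyotome cells, at medians of 14388.5 and 14064 UMIs, and after thinning in 51.8% and 11.3%. No red blood cell of E9.5 had one, which allows 2.73%. At E11.5 dermomyotome was highest with 50.8 (43.9 to 58.6), above myoblasts (21.5, 18.1 to 25.2), sclerotome (12.0, 10.4 to 13.8) and myocytes (8.06, 6.31 to 10.2). The 4 new somite cells of E11.5 held 3 UMIs of Pcdh19 and the 15 myocytes of E9.5 held 4, too few cells for a level. In thinned new somite cells, 29.5% (21.2% to 38.8%) held both Cdh2 and Pcdh19, 22.3% (15.0% to 31.2%) Cdh2 alone and 22.3% (15.0% to 31.2%) Pcdh19 alone. In E9.5 dermomyotome 4.56% (3.32% to 6.09%) held both, 35.3% Cdh2 alone and 6.79% Pcdh19 alone. Whether both were found together more often than the share of each gene would give was not tested.

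The first comparison set new somite, dermomyotome and sclerotome cells of E9.5 side by side. The gate of new somite cells used segmentation genes and did not tell whether a cell lay in a formed somite. A gene was counted where the levels differed by 2-fold or more and the classes held at least 20 of its UMIs together. Between dermomyotome and new somite cells, 2 of the 6 members with enough UMIs were past 2-fold, both lower in dermomyotome, beside 7.81% of the 11148 genes compared (3.31% lower). Pcdh19 was 6.61-fold lower in dermomyotome, a log2 ratio of -2.73 (-2.94 to -2.51). Cdh4 was 2.03-fold lower on 12 and 48 UMIs, with a log2 interval of -1.95 to 0.03 that includes 0, and was past 2-fold no longer in cells thinned to 5000 UMIs or by a mean over cells. The log2 ratio of Cdh2 was -0.08 (-0.29 to 0.14).

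Between sclerotome and dermomyotome of E9.5, 2 of 6 members were past 2-fold, both higher in sclerotome, beside 6.33% of 12109 genes (3.6% higher). They were Cdh11, 4.26-fold higher with a log2 ratio of 2.09 (1.96 to 2.23), and Pcdh18, 2.28-fold higher (1.19, 0.97 to 1.41). Cdh2 and Pcdh19 were lower in sclerotome by less than 2-fold, with log2 ratios of -0.62 (-0.73 to -0.52) and -0.67 (-0.89 to -0.45). At E11.5 only Pcdh19 was past 2-fold among 7 members, 4.23-fold lower in sclerotome, beside 9.91% of 12181 genes (3.96% lower). Cdh11 was then 1.81-fold higher in sclerotome, and Pcdh18 had a log2 ratio of 0.15 (-0.04 to 0.35). When E11.5 dermomyotome cells with an En1 UMI were left out, Cdh3 was past 2-fold too, higher in sclerotome, on 8 UMIs in dermomyotome. In cells of the cranial and caudal sclerotome, told apart by UMIs of Tbx18 without Uncx and the reverse, 0 of 5 members were past 2-fold at E9.5, beside 2.21% of 10139 genes. At E11.5, 1 of 6 was, beside 5.09% of 10895 genes: Pcdh19 was at 18.9 (14.1 to 25.0) UPM in the cranial and 7.86 (5.86 to 10.3) in the caudal cells.

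**Figure D3:**
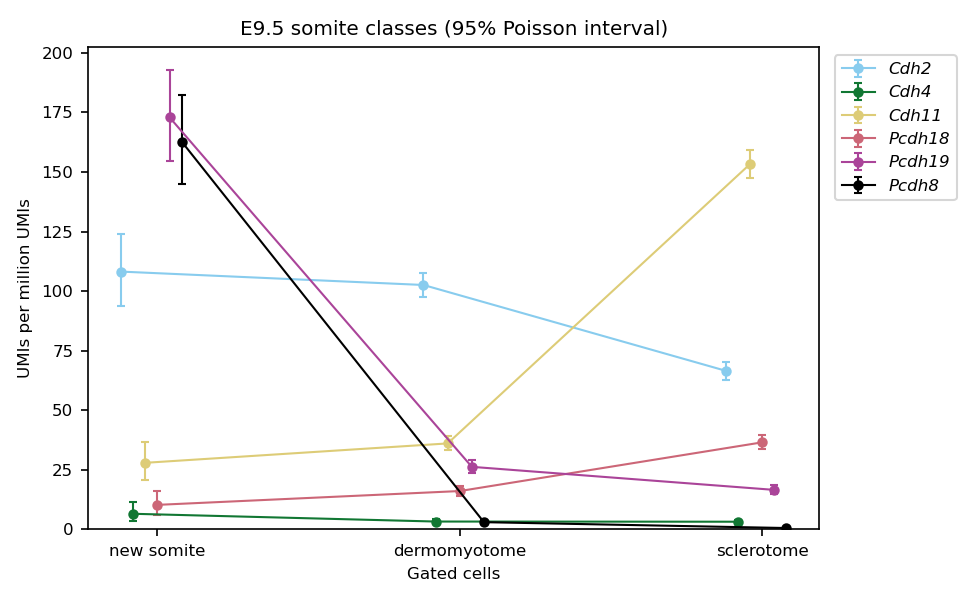
Level in UMIs per 1000000 UMIs (vertical axis) of 5 members and of Pcdh8, a related protocadherin that is no member, in new somite, dermomyotome and sclerotome cells of E9.5, with exact 95% Poisson intervals. Lines only join the values of 1 gene. Pcdh19 and Pcdh8 are at 173 and 163 in new somite cells and low in the derivatives, and Cdh11 is at 153 in sclerotome.

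Between the stages, the 8 members in 4 classes made 32 pairs, and 26 held enough UMIs. In 11 of the 26 the E11.5 level was at least 2-fold higher and in 1 at least 2-fold lower. Over all genes compared, the share higher ran from 11.6% in ectoderm to 27.6% in neural cells. The share lower ran from 4.55% in sclerotome to 8.94% in neural cells. In dermomyotome 4 of 6 members were past 2-fold, all higher at E11.5, where 14.9% of 11592 genes were. Cdh3 was 10.8-fold higher, a log2 ratio of 3.43 (2.76 to 4.14), Cdh4 9.27-fold (3.21, 2.71 to 3.73), Pcdh18 4.36-fold (2.12, 1.87 to 2.38) and Cdh11 3.08-fold (1.62, 1.44 to 1.81). Pcdh19 lay just under 2-fold with 0.96 (0.70 to 1.21), and the interval of Cdh2, -0.15 (-0.33 to 0.01), included 0. The median log2 ratio was 1.87 over the 6 members and 0.13 over all genes compared.

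The dermomyotome-gated cells of E11.5 also carried genes of mesenchyme and dermis. Over 6 such genes, chosen after seeing the data (Prrx1, En1, Pdgfra, Col1a1, Col3a1 and Twist1) and all detected at both stages, the summed level was 332 UPM at E9.5 and 1761 at E11.5, against 974 and 1031 in sclerotome. En1, a marker of the central dermomyotome, was at 0.264 and 135 UPM. These genes differed between the stages in the same direction as Cdh3, Cdh4, Cdh11 and Pcdh18, and their part in it was not tested. When cells with an En1 UMI were left out, the same 4 members were past 2-fold, beside 13.2% of genes. Cdh11 was at 3.02-fold, Cdh4 at 5.99-fold and Pcdh18 at 3.16-fold. Cdh3 was at 2.86-fold on 8 UMIs of E11.5 against 26 of E9.5 (log2 interval 0.16 to 2.70). The cells without En1 still differed in mesenchyme genes between E9.5 and E11.5. Prrx1 was at 34.2 and 179.7 UPM, Col1a1 at 12.4 and 170.5, Col3a1 at 34.1 and 422.9, and Twist1 at 202.5 and 348.4. Pdgfra was at 48.3 and 47.4. Within E11.5, 138 cells with En1 and 107 without it had Cdh3 levels of 28.8 (22.1 to 36.9) and 4.92 (2.13 to 9.7) UPM, and Cdh3 was the only member past 2-fold of 6, beside 5.52% of 9480 genes. Cdh11 was at 112 (98.7 to 128) and 109 (93.5 to 126) in them. Less RNA of a gene in each cell and fewer cells with it cannot be told apart in such sums.

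In sclerotome 4 of 7 members were past 2-fold, all higher at E11.5, where 17.5% of 12638 genes were. Cdh3 was 15.9-fold higher (3.99, 3.47 to 4.55, on the log2 scale), Cdh4 5.19-fold (2.38, 1.96 to 2.82), Cdh6 6.73-fold (2.75, 1.22 to 4.73) on 4 and 25 UMIs, and Pcdh18 2.12-fold (1.09, 0.95 to 1.22). Cdh11, already the leading cadherin at E9.5, was higher by a log2 ratio of 0.39 (0.32 to 0.46), while Cdh2 (-0.36, -0.49 to -0.23) and Pcdh19 (-0.45, -0.72 to -0.19) were lower. Cdh3 and Cdh4 were thus past 2-fold in both mesodermal classes.

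In ectoderm 3 of 6 members were past 2-fold. Higher at E11.5 were Cdh3, 2.21-fold (1.14, 0.78 to 1.52), and Pcdh18, 5.25-fold (2.39, 1.41 to 3.53), where 11.6% of 9461 genes were. Pcdh19 was 2.53-fold lower (-1.34, -2.39 to -0.37), where 5.36% of genes were. The E9.5 level of Pcdh19 in ectoderm rested on few cells: of its 32 UMIs, 29 lay in 7 of the 23 cells with a UMI of Pax2 or Pax8, genes known from the nephric duct and otic epithelium. Without those cells, Pcdh19 stood at 2.52 (0.52 to 7.37) UPM at E9.5 against 5.5 (2.52 to 10.4) at E11.5, fewer than 20 UMIs together, and so was no longer counted. Cdh3 and Pcdh18 were past 2-fold without them, 2.12-fold and 4.37-fold, while in cells thinned to 5000 UMIs Pcdh18 had fewer than 20 UMIs in ectoderm and gave no ratio. The ectoderm-gated cells of E11.5 held 206 UPM of the 6 mesenchyme genes, against 60.2 at E9.5, and the part of these in the Pcdh18 difference was not tested.

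In neural cells 1 of 7 members was past 2-fold, where 27.6% of 13183 genes were higher. This was Cdh11, at 8.66 (7.63 to 9.8) UPM at E9.5 against 42.7 (37.7 to 48.2) at E11.5, 4.93-fold higher (2.30, 2.05 to 2.56). Cdh2 was higher by 0.48 (0.39 to 0.57). The neural cells were mostly progenitors at E9.5 (1957 of 2188) and mostly neurons at E11.5 (366 of 563), but Cdh11 was higher at E11.5 within both, 7.11-fold in progenitors (2.83, 2.47 to 3.18) and 3.39-fold in neurons (1.76, 0.60 to 3.23). Cdh11 was also higher in red blood cells at E11.5 (8.15, 4.98 to 12.6) than at E9.5 (1.77, 0.365 to 5.17), and the 6 mesenchyme genes summed to 49.2 and 209.8 UPM in neural cells. Within progenitors they summed to 48.9 and 88.2 UPM, and within neurons to 75.5 and 253.2. En1 alone gave 40.0 UPM of the sum in neurons of E11.5. The part of these in the neural difference was not tested. The cells with both Cdh2 and Cdh11 made up 2.36% (1.73% to 3.15%) of thinned neural progenitors of E9.5 and 18.7% (12.5% to 26.3%) of those of E11.5. Those with Cdh2 alone made up 50.2% and 44.8%, and those with Cdh11 alone 1.26% and 6.72%. Whether both were found together more often than the share of each gene would give was not tested.

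**Figure D4:**
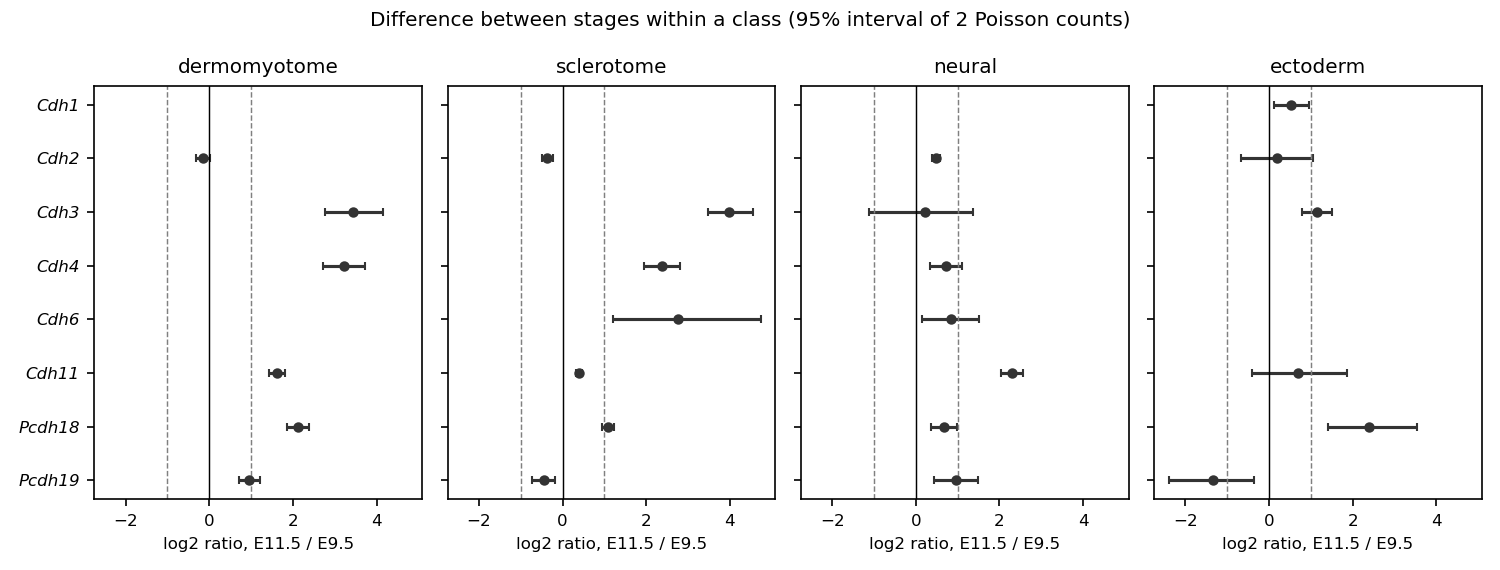
Log2 ratio of the E11.5 over the E9.5 level of each member (horizontal axis) in the 4 classes with levels at both stages, with exact 95% intervals of 2 Poisson counts. Members with fewer than 20 UMIs are left blank and dashed lines mark 2-fold. Cdh3 and Cdh4 lie beyond 2-fold in dermomyotome and sclerotome, and Pcdh19 lies above 0 in dermomyotome and neural cells and below 0 in sclerotome and ectoderm.

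In the E11.5 library, dermomyotome, myoblast and myocyte cells were set side by side as gated classes, and whether they form a course was not tested. Pax7, a muscle progenitor gene, was at 25.2 (20.4 to 30.8) UPM in dermomyotome, 70.7 (64.5 to 77.3) in myoblasts and 21.8 (18.9 to 25.1) in myocytes. Against dermomyotome, 5 of 6 members were at least 2-fold lower in myocytes and none higher, beside 12.6% of 11577 genes lower and 10.4% higher. Cdh3 was 7.2-fold lower, Pcdh19 6.31-fold, Pcdh18 4.41-fold, Cdh2 3.24-fold and Cdh11 2.41-fold. Cdh4 was the exception, with a log2 ratio of -0.44 (-0.78 to -0.09). For Cdh3, 62 of the 70 UMIs of dermomyotome lay in cells with a UMI of En1. Dermomyotome cells without En1 had 4.92 (2.13 to 9.7) UPM of Cdh3, an interval that overlapped that of myocytes (2.57, 1.63 to 3.86). The mesenchyme genes were at 1761 UPM in dermomyotome, 682 in myoblasts and 249.6 in myocytes, in the same order as Pcdh19, Pcdh18, Cdh2 and Cdh11, and their part was not tested. Myoblasts, gated by Myf5 or Myod1 without Myog, had 3 of 6 members past 2-fold below dermomyotome, beside 4.09% of 11159 genes lower. From myoblasts to myocytes 2 of 6 were past 2-fold, Cdh2 (2.18-fold lower) and Pcdh19 (2.66-fold lower), beside 8.23% of 11861 genes lower. Cdh15 (M-cadherin), the muscle cadherin and no member, ran the other way, with 20.1 (15.9 to 25.2) UPM in dermomyotome, 105 (97.7 to 113) in myoblasts and 259.9 (249 to 271) in myocytes. Among myocytes, the 81 with a UMI of the fusion gene Mymk and none of Mymx had 91.3 (76.3 to 108) UPM of Cdh11, and the 317 with a Mymx UMI had 42.7 (37.6 to 48.3), the only 1 of 5 members past 2-fold between them, beside 9.97% of 10452 genes.

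**Figure D5:**
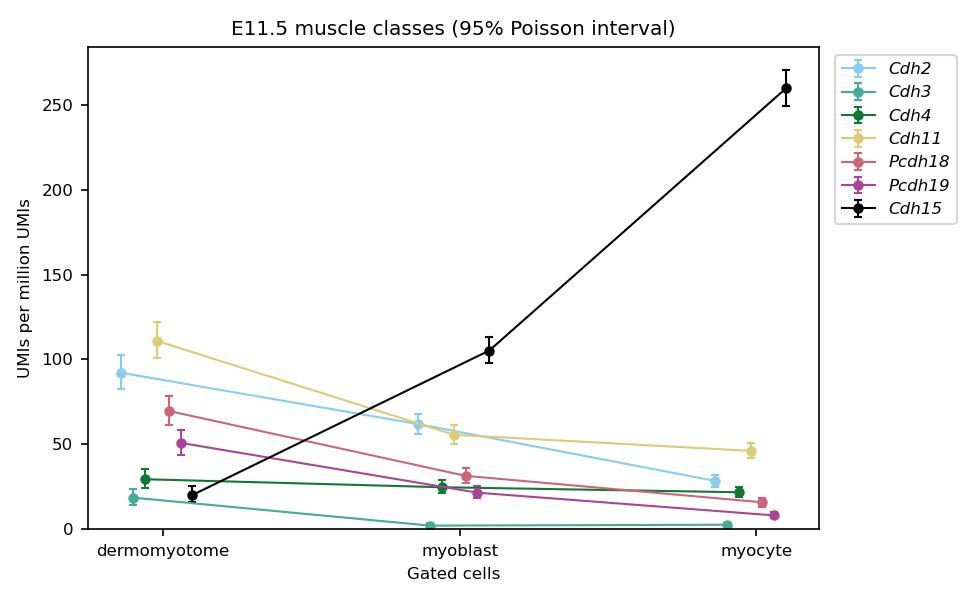
Level in UMIs per 1000000 UMIs (vertical axis) of 6 members and of Cdh15 (black) in dermomyotome, myoblast and myocyte cells of E11.5, with exact 95% Poisson intervals. Lines only join the values of 1 gene. Cdh15 reaches 259.9 in myocytes, Cdh4 stays between 21.7 and 29.4, and Cdh2 goes from 92.2 in dermomyotome to 28.4 in myocytes.

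Neural and ectodermal cells were set against dermomyotome within each library. At E9.5, 4 of 7 members differed past 2-fold in neural cells, beside 17.1% of 12846 genes. Pcdh19 was 7.0-fold and Cdh11 4.15-fold lower there, and Cdh4 was 2.49-fold higher. Cdh6 was 17.8-fold higher on 69 UMIs against 2, with a log2 interval of 2.24 to 7.22. At E11.5 all 7 members compared were past 2-fold, beside 29.6% of 12012 genes, with Cdh2 (2.4-fold) and Cdh6 (5.32-fold on 26 against 3 UMIs, log2 interval 0.70 to 4.78) higher and the other 5 lower in neural cells. Cdh4 thus stood higher in neural cells than in dermomyotome at E9.5 and lower at E11.5 (-1.18, -1.61 to -0.75). In E11.5 dermomyotome, 80 of the 111 Cdh4 UMIs lay in cells with a UMI of En1. The dermomyotome cells without En1 had 19.1 (13.0 to 27.1) UPM of Cdh4 against 13.0 in neural cells, a difference below 2-fold.

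In ectoderm 5 of 7 members differed from dermomyotome past 2-fold at E9.5, beside 16.6% of 11321 genes, and 7 of 7 at E11.5, beside 19.4% of 10477. Cdh1 was 186-fold higher at E9.5 on 80 against 4 UMIs (log2 interval 6.13 to 9.45), and at least 89.6-fold higher at E11.5, where dermomyotome had none and 3 counts were taken as its floor. The exact 95% lower bound of the log2 ratio at E11.5 was 6.16. Cdh3 was 32.2-fold and 6.58-fold higher at the stages in turn. Cdh2 was 7.25-fold and 5.71-fold lower and Cdh11 4.88-fold and 9.27-fold lower. In thinned ectoderm cells of E11.5, 29.7% (21.4% to 39.1%) held Cdh1 without Cdh2 and 6.31% (2.57% to 12.6%) held Cdh2 without Cdh1. Of 111 cells none held both (0% to 3.27%), and at E9.5 1 of 101 did. With so few Cdh2 cells this does not tell whether the transcripts exclude each other.

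Within the E9.5 neural tube, Pcdh19 and Cdh6 differed along the dorsoventral axis. Dorsal progenitors (636 cells with Pax3 or Pax7 and neither Nkx6-1 nor Olig2) and ventral progenitors (770 cells with the reverse) had Pcdh19 levels of 6.26 (4.77 to 8.05) and 0.695 (0.28 to 1.43) UPM, 9.0-fold higher dorsally (3.17, 2.04 to 4.54). Cdh6 ran the other way, at 0.521 (0.169 to 1.22) and 4.77 (3.52 to 6.32), 9.14-fold higher ventrally. These were 2 of 6 members, beside 5.72% of 11523 genes. Cdh2 was higher dorsally by a log2 ratio of 0.23 (0.12 to 0.33). At E11.5, on 76 dorsal and 21 ventral cells, Cdh2 was lower dorsally, with a log2 ratio of -1.23. Neural crest, gated by Sox10 or Foxd3 with another crest gene, differed from neural progenitors past 2-fold in 5 of 7 members at E9.5, beside 16.4% of 12313 genes. Cdh6 was 5.38-fold and Cdh11 2.82-fold higher in it, and Cdh2 (2.3-fold), Cdh4 (2.99-fold) and Pcdh19 (2.84-fold) were lower. At E11.5 again 5 of 7 were past 2-fold, beside 19.8% of 10404 genes. Cdh6 was 6.53-fold and Cdh3 2.11-fold higher in neural crest, and Cdh11 (5.49-fold), Cdh4 (9.86-fold) and Pcdh19 (3.88-fold) were lower. The Cdh3 ratio rested on 17 UMIs in neural crest against 3 in neural progenitors, at the minimum of 20. Cdh11 thus stood on opposite sides at the stages.

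The other genes of the family and the junction were counted by the same rule. Over all genes compared, 14.9% were past 2-fold higher at E11.5 and 6.31% lower in dermomyotome, 17.5% and 4.55% in sclerotome, and 27.6% and 8.94% in neural cells. Of 7 other delta protocadherins, 3 of 5 with enough UMIs were past 2-fold higher at E11.5 in dermomyotome, 6 of 6 in sclerotome and 6 of 7 in neural cells, and none was lower. Their median log2 ratios were 2.83, 3.46 and 4.34, against 0.13, 0.21 and 0.31 over all genes compared. Pcdh7, Pcdh9 and Pcdh17 were past 2-fold higher in all 3 of these classes, Pcdh10 and Pcdh11x in sclerotome and neural cells, Pcdh1 in neural cells and Pcdh8 in sclerotome. In sclerotome Pcdh9 was at 0.332 (0.122 to 0.722) UPM at E9.5 against 19.7 (17.6 to 21.9) at E11.5, and Pcdh17 at 0.829 (0.464 to 1.37) and 7.38 (6.14 to 8.8). In neural cells Pcdh7 was at 2.11 (1.62 to 2.7) and 42.6 (37.6 to 48.1). Pcdh8, a protocadherin of segmenting mesoderm, was at 163 (145 to 182) UPM in new somite cells and 2.91 (2.11 to 3.9) in dermomyotome of E9.5, a 56.0-fold difference beside the 6.61-fold one of Pcdh19. Of 12 other cadherins, 3 of 5 were past 2-fold higher in dermomyotome at E11.5 and none lower, 3 higher and 1 lower of 5 in sclerotome, and 8 of 9 higher in neural cells. Cdh10 and Cdh13 were higher in all 3 classes, Cdh18 in sclerotome, and Cdh8, Cdh12, Cdh20, Cdh22 and Cdh24 in neural cells. Cdh15 was higher in dermomyotome (2.05-fold) and neural cells (3.83-fold) and lower in sclerotome (2.37-fold). The summed myocyte markers were also higher at E11.5 in neural cells (5.4 and 39.8 UPM), dermomyotome (11.2 and 37.6) and red blood cells (18.3 and 46.0). In sclerotome they were at 16.0 and 20.2. The part of stray muscle RNA in the Cdh15 differences was not tested. Cdh5 (VE-cadherin), the cadherin of vessels, was at 429 (411 to 448) and 827 (781 to 875) UPM in endothelial cells and at 0.598 or below in the 6 classes compared. Cdh13, a cadherin anchored to the membrane by a lipid, was at 1.84 UPM in ectoderm at E9.5 against 61.0 (49.8 to 74.1) at E11.5.

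Beside the same 14.9%, 17.5% and 27.6% of all genes higher and 6.31%, 4.55% and 8.94% lower in dermomyotome, sclerotome and neural cells, the partners were counted next. Of the 7 catenins, 2 of 6 were past 2-fold higher at E11.5 in dermomyotome, 1 of 7 in sclerotome and 3 of 7 in neural cells, where 1 was lower, Ctnnal1 (3.19-fold). Ctnnb1 (beta-catenin), the most abundant, was at 348 (338 to 357) and 403 (383 to 424) UPM in dermomyotome and 341 (332 to 349) and 524 (513 to 535) in sclerotome. Ctnna1 (alpha-catenin) was at 105 (99.9 to 110.3) and 78.9 (70.2 to 88.4) in dermomyotome, and Ctnnd1 (p120-catenin) at 33.9 (31.1 to 37.0) and 29.9 (24.7 to 36.0). Jup (plakoglobin) was past 2-fold higher in all 4 classes, ectoderm included, and highest there, at 38.7 (29.8 to 49.6) and 81.4 (68.3 to 96.2). Ctnna2, the neural form of alpha-catenin, was past 2-fold in dermomyotome and in neural cells, where it was at 2.58 (2.03 to 3.23) and 47.9 (42.6 to 53.7). Ctnnd2, a neural relative of p120-catenin, was 6.26-fold higher in neural cells. Of 10 junction partners, which include the WAVE complex subunits Nckap1 and Cyfip1 that delta2 protocadherins bind, 1 was past 2-fold in dermomyotome (Afdn, afadin, 2.41-fold lower at E11.5), 0 in sclerotome and 2 in neural cells (Cyfip2 higher and Tjp1 lower). Nckap1 was at 71.6 and 60.6 UPM in dermomyotome and Cyfip1 at 62.5 and 71.5. Of the 6 repressors of Cdh1, Zeb2 was past 2-fold lower in dermomyotome at E11.5 (2.08-fold), Snai2 higher in sclerotome (2.3-fold), and Snai2 and Twist1 higher in neural cells. In E11.5 ectoderm, the class with Cdh1, Zeb2 was at 1.79 UPM, against 19.6 in dermomyotome and 128 in neural cells, while Tcf4 was at 196, 352 and 285 and Twist1 at 63.4, 373 and 50.9.

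Genes other than the members were ranked by how closely their levels followed each member over the 20 profiles of class and stage, by Pearson r of log2(UPM + 1), among 13911 genes. Those profiles come from 2 libraries and are no replicates. Cdh1 was followed most closely by the epithelial genes Grhl2 (0.99), Cldn7 (0.99) and Rab25 (0.99). Outside ectoderm Cdh1 was at 1.68 UPM or less, so these values rest on the ectoderm profiles. Ectoderm was itself gated by epithelial genes, so a high r of such genes with Cdh1 is no finding. Cdh3 was nearest to Smoc2 (0.91), Cpz (0.88) and Egfr (0.87), Cdh2 to Tm7sf2 (0.90), Myo5a (0.89) and Dpysl2 (0.89), and Cdh4 to Ptprd (0.89), Zfp935 (0.88) and Vstm2b (0.87). Cdh11 was nearest to Tnfaip6 (0.88), Pgf (0.87) and Cd248 (0.87), and Cdh6 to 1700019D03Rik (0.90), Slc35f1 (0.88) and Dagla (0.87). Pcdh18 was nearest to Chpt1 (0.91) and Evc (0.90), and Pcdh19 to Dnmbp (0.83), Ankle2 (0.82) and Sema3a (0.81).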

How the data were processed

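The deposited files hold raw UMI counts of 27998 genes in 10121 (E9.5) and 10167 (E11.5) barcodes, 149368952 and 136655763 UMIs in all, made by the authors with Cell Ranger 3.0.1 on mm10. Each stage is 1 library, so no p-value was computed.

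The members, gene lists and gates were chosen with earlier results of these data known. New somite cells had Tcf15 or Meox1 and 2 segmentation genes such as Ripply2, dermomyotome cells Pax3 and 2 genes such as Meox1 without Myod1 or Myog, myocytes Myog and 2 contractile genes, sclerotome cells Pax1 or Pax9 and 2 genes of that list, neural progenitors Sox2 or Sox1 with another such gene, neurons Elavl3 or Elavl4 and 3 neuronal genes, and ectoderm cells Epcam and 3 epithelial genes. Dermomyotome cells also had fewer than 2 Myf5 UMIs, and myocytes at least 2 Myog UMIs. Ectoderm cells also had a UMI of Trp63, Krt5, Krt14 or Tfap2a, and Epcam counted among their 3 genes. Red blood cells had at least 20% globin UMIs. Doublets were treated by the gene maximum and by setting aside cells that passed more than 1 gate (progenitor with neuron excepted). Scrublet's automatic threshold marked 5.8% of E9.5 and 0% of E11.5 barcodes, so an alternative removed the highest 5% of scores in each library.

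For a level, the UMI counts of a gene in a class were added up and set against the total UMIs of its cells. Ratios carry the exact 95% conditional interval of 2 Poisson counts. The calculation was run on simulated Poisson counts, the model that the interval assumes. Those counts lack the clustering of UMIs by cell, so the run checks the arithmetic only. Coordinates are those of GENCODE M21. Of other lists, the 3 genes with the most UMIs and those past 2-fold between stages in dermomyotome, sclerotome or neural cells were named, and for each member the 3 genes of highest Pearson r, of which 1 is not reported here. Older symbols of 5 genes, among them Afdn, Mymx and Mymk, were matched by identifier. Alternatives were strict gates, cells of several gates counted in each, thinning to 5000 UMIs, a minimum of 1000 genes, no maximum of genes, a mean over cells, no minimum of UMIs, 1.5-fold and, chosen after seeing the data, leaving out dermomyotome cells with En1 or ectoderm cells with Pax2 or Pax8, and the doublet score threshold. Python 3.11.15, numpy 2.4.6, scipy 1.17.1, pandas 2.3.3, scanpy 1.11.5 and matplotlib 3.10.9 were used.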

Additional observations from a re-analysis of the deposited data

Results flagged for a closer look

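In 3 members the direction of the stage difference was opposite in a pair of classes, with 95% counting intervals on either side of 0. With 1 library per stage the differences between classes were not tested. Cdh2 was higher at E11.5 in neural crest, with a log2 ratio of 1.43 (1.26 to 1.61), and lower in myoblasts, with -0.91 (-1.14 to -0.69). Cdh11 was higher in endothelial cells, with 2.31 (1.50 to 3.16) and levels of 4.68 and 23.3 UPM, and lower in neural crest, with -1.12 (-1.62 to -0.64). The endothelial levels rested on 22 and 34 UMIs. Red blood cells had Cdh11 levels of 1.77 and 8.15 UPM, and the 6 mesenchyme genes summed to 55.1 and 126.6 in endothelial cells. The part of these in the endothelial difference was not tested. Pcdh19 was higher in neural cells, with 0.97 (0.43 to 1.48), and lower in ectoderm, with -1.34 (-2.39 to -0.37), where 29 of its 32 UMIs at E9.5 lay in cells with Pax2 or Pax8.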

How the results depend on the processing

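No paired analysis was possible because each stage has 1 library and the labels give no replicate numbers. Of 278 log2 ratios between stages recomputed under the alternatives, 262 kept their side of the fold limit, and 6 of the 16 others did not because the limit itself was 1.5-fold. Of 720 levels, 645 stayed within their counting interval. No ratio past 2-fold changed sign among those that kept at least 20 UMIs, and ratios with fewer were not checked for sign. Pcdh19 in ectoderm, the pair lower at E11.5 as reported, was left unchecked in this way. Without cells with Pax2 or Pax8 its level was higher at E11.5, on 9 UMIs against 3 for the earlier stage, with overlapping intervals. The counts of ratios and levels that stayed include values that could not move. Dropping the minimum of UMIs left all 26 ratios as they were. Leaving out cells with En1 could change dermomyotome values only, and leaving out cells with Pax2 or Pax8 ectoderm values only. The count of pairs lower at E11.5 (1 in the comparison as reported) was 0 with strict gates, 0 in thinned cells, 0 without ectoderm cells with Pax2 or Pax8, 2 with cells of several gates counted in each, and 2 with no minimum of UMIs. The count of pairs higher at E11.5 (11 as reported) was 17 at 1.5-fold. Of the members past 2-fold between dermomyotome and new somite cells (2 as reported), 1 remained past it in thinned cells and 1 by a mean over cells. Between sclerotome and dermomyotome, the count at E9.5 (2) was 4 at 1.5-fold, and the count at E11.5 (1) was 6 at 1.5-fold and 2 under each of strict gates, cells of several gates counted in each, removal of high doublet scores, a mean over cells, and dermomyotome without En1 cells. The cause of these moves was not tested, and the share of all genes past 1.5-fold was not computed. In 8 cases a ratio had too few UMIs under an alternative, 5 of them in thinned cells. These were Cdh6 in sclerotome, Cdh3 in neural cells, and Cdh11, Pcdh18 and Pcdh19 in ectoderm.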

Other observations

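Cells that passed no gate, 35.3% of those kept at E9.5 and 62.0% at E11.5, held all 8 members. Their most abundant member was Cdh2 at E9.5, with 90.8 (87.8 to 93.8) UPM, and Cdh11 at E11.5, with 143 (140.3 to 146), against 68.8 (66.2 to 71.4) at E9.5. Pcdh18 was at 28.6 (26.9 to 30.3) and 83.9 (81.8 to 86.0), Pcdh19 at 13.7 (12.6 to 14.9) and 24.3 (23.1 to 25.4), and Cdh3 at 10.6 (9.59 to 11.6) and 16.7 (15.7 to 17.6). Cdh1 was at 0.98 (0.697 to 1.34) and 0.0548 (0.0149 to 0.14). At E11.5 the interval of Pcdh18 in ungated cells lay above that of sclerotome (73.1 to 81.6), the highest of the main gated classes.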
